A study of Homo sapiens with 2 samples.

Results

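The respiratory chain of the inner mitochondrial membrane passes electrons from NADH (complex I) and succinate (complex II) through ubiquinone to complex III, and from there by cytochrome c to complex IV, which reduces oxygen. Complexes I, III and IV pump protons as they do so, and ATP synthase uses the proton gradient to make ATP. Complexes I, III and IV combine subunits from both the nuclear and the mitochondrial genome, whereas complex II is nuclear throughout. The genes described here are the protein-coding rows of the deposited table whose symbols belong to this chain: NDUFA, NDUFB, NDUFC, NDUFS and NDUFV for complex I, SDHA to SDHD for complex II, UQCR and CYC1 for complex III and COX4 to COX8 for complex IV. This gave 68 of 21382 genes, with 37 in complex I, 4 in complex II, 10 in complex III and 17 in complex IV. All 68 are nuclear genes. The mitochondrially encoded subunits and the ATP synthase subunits were not analysed here, so nothing can be said of the balance between the genomes.

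Total RNA was sequenced from untreated cultures of a pair of established human lines of prostate cancer: 1 library of MDA PCa 2b and 1 of RC77 T/E. MDA PCa 2b cells grew in a modified Ham's F-12 medium with serum, cholera toxin, insulin, hydrocortisone, selenite, phosphoethanolamine and epidermal growth factor. RC77 T/E cells grew in a serum-free keratinocyte medium with epidermal growth factor and pituitary extract. The cell line and its medium therefore cannot be told apart in any difference below, and with 1 library per line no value has a replicate error and no test was possible. The luminal marker KLK3 was listed at 0 in RC77 T/E and had 5323 TPM in MDA PCa 2b, and KLK2 was also listed at 0 in RC77 T/E only. The luminal keratins were near each other in both lines, with KRT18 at 320.5 TPM in MDA PCa 2b against 324.8 TPM in RC77 T/E and a log2 ratio of -0.30 for KRT8. The basal keratins KRT5, KRT14 and KRT15 had 4027, 3255 and 272 TPM in RC77 T/E and 0.00435, 37.4 and 2.42 TPM in MDA PCa 2b, and the basal marker TP63 was listed at 0 in MDA PCa 2b. Of the fibroblast markers COL1A1 was at 8.24 TPM in the RC77 T/E library against 0.554 TPM in the other, while COL1A2 and DCN were under 1 TPM in both. Of the leukocyte markers PTPRC, CD3E and LYZ the highest value was 0.5013 TPM. In a library made from a whole culture, less RNA per cell and fewer cells that express a gene cannot be told apart.

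TPM scales the reads of each gene by transcript length and library total, so levels can be compared between genes, but it keeps no record of depth, and the counting error is unknown. Many TPM values were deposited without their decimal mark. The mark had only 1 position that fits the deposited mean and standard error for 19 members, 2 positions for 37 members and 3 positions for 12 members. Where several positions fitted, each value that fits is given, in the same order for both cell lines. Moving the mark left the ratio between the lines as it was for each of the 9767 genes that reached 1 TPM in both, and the comparison rests on that ratio: TPM in RC77 T/E over TPM in MDA PCa 2b, mostly given as RC77 T/E in percent of MDA PCa 2b. A gene past 2-fold is one whose ratio lies beyond 2 in either direction.

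Transcripts of the respiratory chain were less abundant in RC77 T/E for 53 of the 61 members at 1 TPM or more in both lines. The median RC77 T/E level was 52.5% of the MDA PCa 2b level, a log2 ratio of -0.93, and the members ranged from -2.44 for UQCR11 to 0.52 for SDHA. Of these 61 members 29 (47.5%) were at least 2-fold lower in RC77 T/E and 0 were at least 2-fold higher. By any amount, 59.6% of all genes were lower in RC77 T/E. Over all 9767 genes 22.2% were at least 2-fold lower and 14.1% at least 2-fold higher, and the median log2 ratio was -0.26. When that median was subtracted, 16.2% of all genes were 2-fold lower and 18.6% higher, and the members numbered 22 lower and 0 higher, with 52 of the 61 below the median of all genes.

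**Figure D1:**
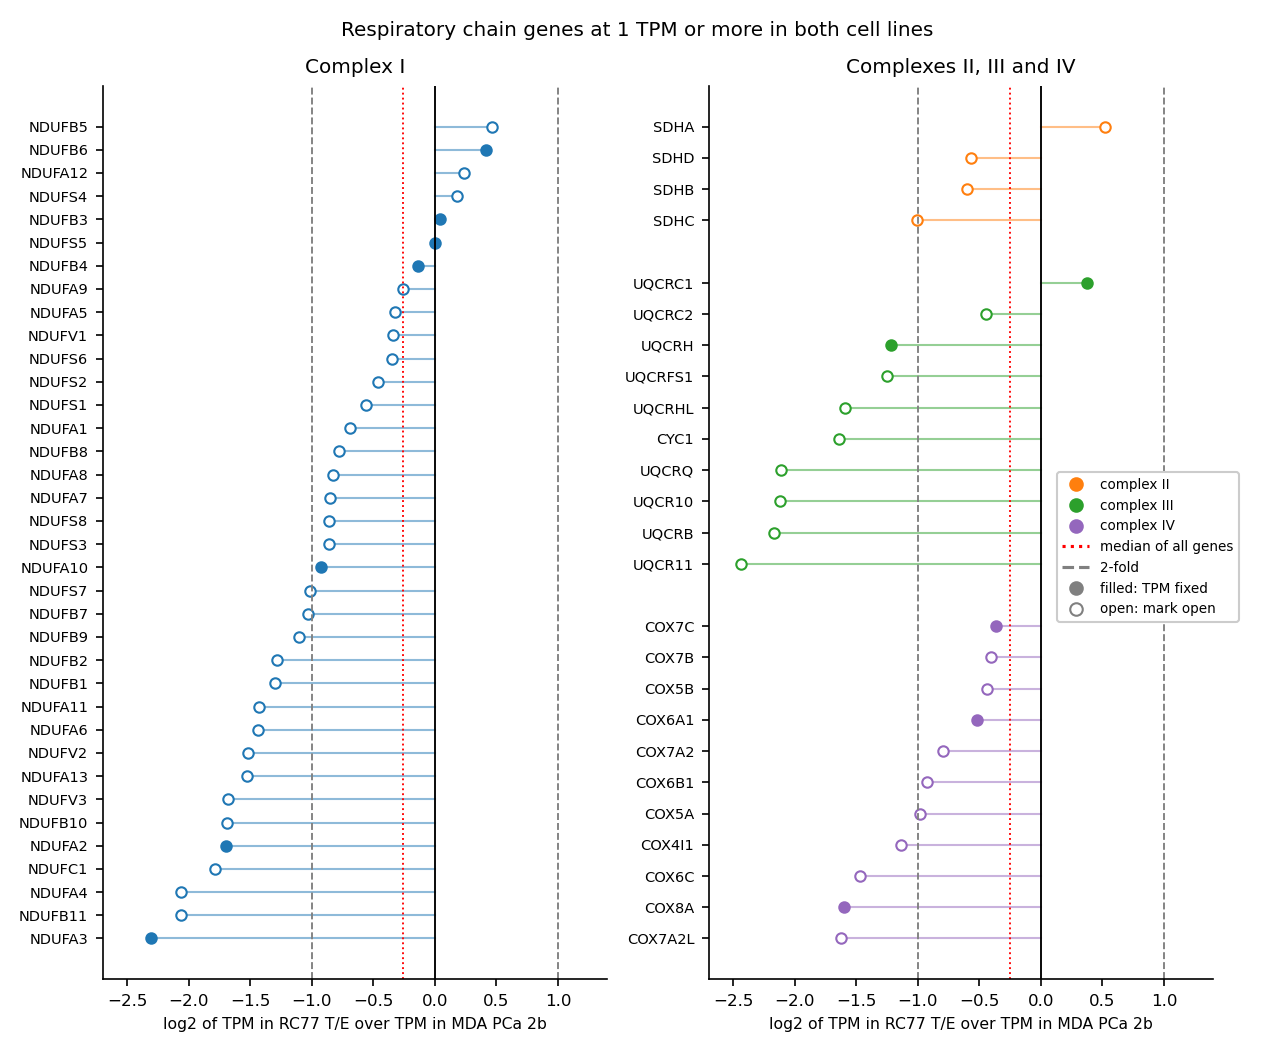
Log2 ratio of TPM in RC77 T/E over MDA PCa 2b (x axis) for each member that reached 1 TPM in both lines, sorted within its complex. Filled points have 1 position of the decimal mark, open points several with the same ratio; dashed lines mark 2-fold and the dotted red line the median of all genes, -0.26. In complex III 8 of 10 points lie past 2-fold to the left, and no point lies past it to the right.

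The complexes differed in how far they lay from the median of all genes. Complex III had a median log2 ratio of -1.62, with 8 of 10 members 2-fold lower. In complex IV, 4 of 11 members were 2-fold lower and the median was -0.93. Complex I had a median of -0.86 and 16 of 36 members 2-fold lower, and complex II a median of -0.58 with 1 of 4. The share 2-fold lower was thus 80% in complex III, 44.4% in complex I, 36.4% in complex IV and 25% in complex II. Over all genes it was 22.2%, so complex II was near that share. With 10 or fewer members in complexes II and III, each count hangs on a few genes.

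The sequences just before the transcription start of 7 members are shown, among them the lowest ratio, UQCR11, and the highest, SDHA. SDHA is shown over 200 bases and the others over 120. Each stretch shown holds at least 1 match, so the 7 are not typical of the members. The most frequent form, GCGCANGCG, stood in 17 of 55 member promoters. They are from RefSeq on GRCh38.p14, read 5′ to 3′ on the strand of the gene and ending at the base before the annotated start. Capitals mark matches on either strand to the letters CCGGAAGT, the core of sites for ETS factors such as GABP, and to GCATGCGC or the looser GCGCANGCG (N is any base), forms of the site of NRF1. Both kinds of factor are known for their part in the transcription of nuclear respiratory genes. The stretches are chr19:1605463-1605582 (minus strand) for UQCR11, chr5:132866522-132866641 (plus) for UQCRQ, chr19:54102735-54102854 (plus) for NDUFA3, chr11:63974500-63974619 (plus) for COX8A, chr11:112086753-112086872 (plus) for SDHD, chr3:48609647-48609766 (minus) for UQCRC1 and chr5:218120-218319 (plus) for SDHA. The first 4 genes were 2-fold lower in RC77 T/E, SDHD was not, and UQCRC1 and SDHA were higher in RC77 T/E.
UQCR11: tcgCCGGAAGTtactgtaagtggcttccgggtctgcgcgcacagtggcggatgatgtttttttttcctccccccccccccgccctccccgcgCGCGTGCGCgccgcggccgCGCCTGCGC
UQCRQ: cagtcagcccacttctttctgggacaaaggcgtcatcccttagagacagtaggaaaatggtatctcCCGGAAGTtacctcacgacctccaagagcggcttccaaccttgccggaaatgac
NDUFA3: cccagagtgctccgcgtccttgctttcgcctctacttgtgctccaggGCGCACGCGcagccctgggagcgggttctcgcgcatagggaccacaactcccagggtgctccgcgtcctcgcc
COX8A: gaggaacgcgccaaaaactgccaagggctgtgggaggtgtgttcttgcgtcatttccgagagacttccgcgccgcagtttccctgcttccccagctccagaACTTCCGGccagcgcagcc
SDHD: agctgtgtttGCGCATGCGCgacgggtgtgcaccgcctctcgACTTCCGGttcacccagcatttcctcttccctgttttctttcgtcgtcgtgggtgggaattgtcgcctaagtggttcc
UQCRC1: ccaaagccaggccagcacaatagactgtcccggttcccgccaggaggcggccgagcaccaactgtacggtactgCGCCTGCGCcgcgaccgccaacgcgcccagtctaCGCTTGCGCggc
SDHA: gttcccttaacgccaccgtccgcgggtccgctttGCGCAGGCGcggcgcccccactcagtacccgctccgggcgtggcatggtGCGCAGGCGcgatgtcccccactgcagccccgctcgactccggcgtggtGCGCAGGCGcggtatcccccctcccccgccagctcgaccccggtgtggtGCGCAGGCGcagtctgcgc
In the 200 bases shown for SDHA the looser NRF1 letters occur 4 times, 166, 117, 68 and 19 bases before the start, so that each match begins 49 bases after the one before it. SDHD holds the full NRF1 palindrome of 10 letters and 1 ETS match. UQCR11 holds 2 looser NRF1 matches and 1 ETS match.

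RefSeq promoters, from 250 bases before to 50 bases after the start, were matched for 55 of the 68 members. The letters GCATGCGC stood in 10 of these 55 (18.2%), beside 3.68% of 27305 genes with a promoter. Those 27305 are all symbols with a RefSeq promoter, expressed here or not, more than the 17409 protein-coding symbols of the series. A gene counted if any of its promoters matched. The members and these genes were not matched for expression or base composition, so whether the shares are specific to respiratory genes cannot be said. The ETS letters stood in 8 members (14.5%), beside 4.95% of all genes. The full palindrome, which contains GCATGCGC, stood in the promoters of NDUFA8, NDUFB4 and SDHD (5.45%, beside 1.52%). The looser GCGCANGCG, chosen after the sequences were seen and overlapping both other forms, stood in 17 members (30.9%, beside 9.02%). By ratio, GCATGCGC stood in 2 of the 22 matched members that were 2-fold lower (9.09%) and in 8 of the 29 other matched members at 1 TPM or more in both lines (27.6%). The looser GCGCANGCG was nearer to even, in 6 of the 22 (27.3%) and in 10 of the 29 (34.5%). The full palindrome stood in 0 of the 22 and in 3 of the 29. The ETS letters were found in 5 of the 22 (22.7%) and in 3 of the 29 (10.3%). These are matches of letters, and binding was not measured.

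Complex III, which takes electrons from ubiquinol to cytochrome c, held the lowest ratio of all members. UQCR11, a small accessory subunit that overlaps AC005943.1 on its own strand, was at 19.4 or 194 TPM in the MDA PCa 2b library and at 3.59 or 35.9 TPM in the RC77 T/E library, which is 18.5%. UQCRB, an accessory subunit that lies by the ubiquinone site, was at 8.93, 89.3 or 893 TPM and at 1.98, 19.8 or 198 TPM, or 22.2%. UQCR10 was at 22.8 or 228 TPM against 5.24 or 52.4 TPM, or 22.9%. UQCRQ was at 14.9 or 149 TPM against 3.44 or 34.4 TPM, or 23.1%. These 4 small accessory subunits had the lowest ratios of the complex.

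The catalytic nuclear subunits of complex III were less far apart. Cytochrome c1, encoded by CYC1, was at 3.22, 32.2 or 322 TPM in the MDA PCa 2b library and at 1.03, 10.3 or 103 TPM in the RC77 T/E library, or 32.1%. The Rieske iron-sulfur protein, encoded by UQCRFS1, was at 14.7 or 147 TPM against 6.17 or 61.7 TPM, or 42.1%. The largest subunits, called core proteins although they carry no redox centre, had the highest ratios of the complex. UQCRC1 was at 155 TPM in the MDA PCa 2b library and 201 TPM in the RC77 T/E library, 1.30 times as high, and UQCRC2 was at 73.5% in RC77 T/E.

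UQCRH, the acidic hinge protein that helps cytochrome c1 meet cytochrome c, was at 772 TPM in the MDA PCa 2b library and 331 TPM in the RC77 T/E library, or 42.9%. UQCRHL, its intronless copy, was at 6.36, 63.6 or 636 TPM and at 2.11, 21.1 or 211 TPM, or 33.2%. Their coding sequences in GENCODE release 29 are shown without the stop codon, since reads from one can be counted for the other. Capitals mark the bases that differ.
UQCRH: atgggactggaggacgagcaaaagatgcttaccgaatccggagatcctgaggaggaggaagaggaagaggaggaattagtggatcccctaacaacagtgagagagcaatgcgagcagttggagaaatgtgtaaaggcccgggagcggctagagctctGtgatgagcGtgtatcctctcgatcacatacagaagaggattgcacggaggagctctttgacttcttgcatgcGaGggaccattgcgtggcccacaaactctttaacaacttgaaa
UQCRHL: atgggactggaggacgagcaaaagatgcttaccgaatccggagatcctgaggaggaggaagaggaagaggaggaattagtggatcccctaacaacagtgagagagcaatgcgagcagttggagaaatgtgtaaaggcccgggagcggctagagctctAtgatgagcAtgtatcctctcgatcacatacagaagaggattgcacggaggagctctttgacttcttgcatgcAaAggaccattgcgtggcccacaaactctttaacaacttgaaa
They differ at 4 of 273 bases (98.5% identical), namely G158A, G167A, G231A and G233A, counted from 1 at the start codon with the base of UQCRH first. The longest stretch without a difference is 157 bases. The split of reads between this pair is therefore uncertain, and each level is too. Without UQCRHL the median over the members was -0.93 as before.

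Complex I, which oxidises NADH, is the largest complex and had the widest choice of members. The lowest ratio was that of NDUFA3, an accessory subunit of the membrane arm, at 558 TPM in the MDA PCa 2b library and 112 TPM in the RC77 T/E library, or 20.1%. NDUFA2, an accessory subunit of the arm that oxidises NADH, also had a fixed level in both lines, at 187 and 57.6 TPM, or 30.9%. Both were well apart between the libraries at levels that do not depend on the decimal mark.

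Other membrane-arm subunits were as far apart. NDUFB11, encoded on the X chromosome, was at 14.1 or 141 TPM in the MDA PCa 2b library and 3.37 or 33.7 TPM in the RC77 T/E library, or 23.9%. NDUFC1 was at 12.2 or 122 TPM against 3.52 or 35.2 TPM, or 28.9%, and it overlaps MGARP on its own strand. NDUFB10 stood at 25.0 or 249.6 TPM against 7.75 or 77.5 TPM, or 31.1%. The remaining accessory subunits past 2-fold were NDUFV3 (31.2%), NDUFA13 (34.7%), NDUFA6 (36.9%), NDUFA11 (37.1%), NDUFB1 (40.6%), NDUFB2 (41.0%), NDUFB9 (46.6%) and NDUFB7 (48.8%). NDUFA13, NDUFA11 and NDUFB2 overlap YJEFN3, AC024592.3 and ADCK2 on their own strands.

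NDUFA4 was named as a complex I subunit and is now placed in complex IV. It was at 17.5 or 175 TPM in the MDA PCa 2b library and 4.18 or 41.8 TPM in the RC77 T/E library, or 24.0%. Counting it in complex IV left the medians at -0.86 for complex I and -0.96 for complex IV.

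The 7 nuclear core subunits of complex I, which carry its redox centres or lie beside them, were each lower in RC77 T/E, with a median log2 ratio of -0.86. Of these 7, 2 (28.6%) were 2-fold lower, beside 22.2% of all genes, and 59.6% of all genes were lower by any amount. NDUFV2, an iron-sulfur subunit at the NADH end, was at 24.1 or 241 TPM in the MDA PCa 2b library and 8.44 or 84.4 TPM in the RC77 T/E library, or 35.0%. NDUFS7, which holds the last iron-sulfur cluster before ubiquinone, was at 15.1 or 151 TPM and 7.47 or 74.7 TPM, or 49.5%. NDUFV1, the flavin-binding subunit that receives electrons from NADH, was at 79.2%. The 29 accessory subunits had a median of -0.92, with 14 of them (48.3%) 2-fold lower and 6 higher in RC77 T/E by less than 2-fold.

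These 6 were NDUFB5, NDUFB6, NDUFA12, NDUFS4, NDUFB3 and NDUFS5. NDUFB5 had the highest ratio of complex I, at 6.28, 62.8 or 628 TPM in the MDA PCa 2b library and 8.65, 86.5 or 865 TPM in the RC77 T/E library, 1.38 times as high. NDUFB6 was at 45.6 TPM in the MDA PCa 2b library and 60.6 TPM in the RC77 T/E library, 1.33 times as high. NDUFS5 was level, at 412.0 and 412.3 TPM, as was NDUFB3 at 62.8 and 64.7 TPM. The complex I members with a ratio thus spanned ratios from 20.1% to 1.38 times.

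**Figure D2:**
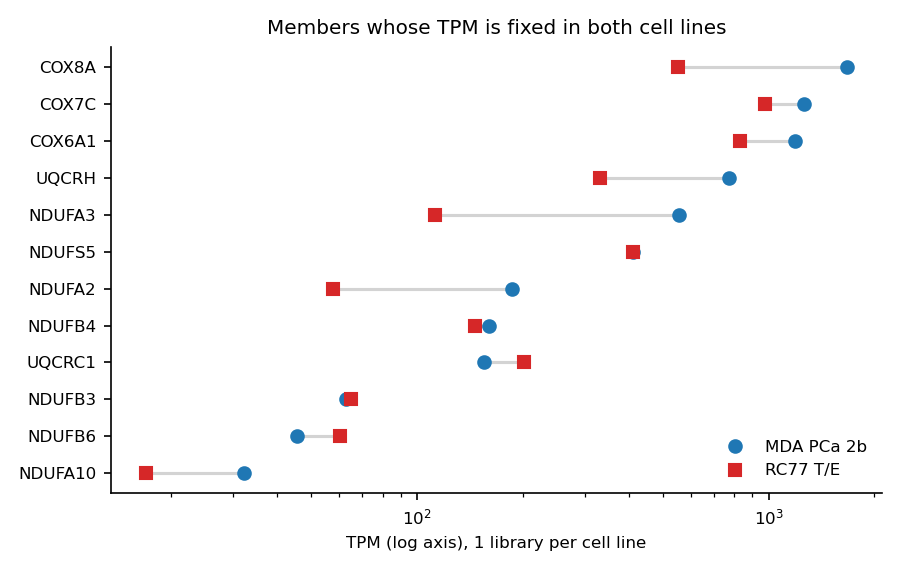
TPM on a log axis of the 12 members at 1 TPM or more in both lines whose decimal mark has 1 position, with MDA PCa 2b as blue circles and RC77 T/E as red squares, 1 library each. COX8A, UQCRH, NDUFA3 and NDUFA2 are more than 2-fold lower in RC77 T/E, whereas NDUFS5 and NDUFB3 nearly coincide.

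The plot of fixed TPM levels holds only 12 members, and having a fixed mark is tied to the ratio itself. Over all genes at 1 TPM or more in both lines, the mark was fixed in 49.2% of those within 2-fold and in 13.7% of those past it. The 12 members had a median log2 ratio of -0.45, with 4 of them 2-fold lower, and all 3551 genes with a fixed mark had a median of -0.06, with 8.79% 2-fold lower.

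Complex II, which oxidises succinate and is also an enzyme of the citric acid cycle, was the least far apart. SDHA, its flavoprotein, had the highest ratio of all members, at 9.52 or 95.2 TPM in the MDA PCa 2b library and 13.7 or 137 TPM in the RC77 T/E library, 1.44 times as high. SDHB, the iron-sulfur subunit, was at 8.53, 85.3 or 853 TPM against 5.62, 56.2 or 562 TPM, or 65.9%. The membrane anchors were lower in RC77 T/E too. SDHD was at 10.2 or 102 TPM against 6.92 or 69.2 TPM, or 67.6%. SDHC was at 9.60 or 96.0 TPM against 4.77 or 47.7 TPM, or 49.7%, which placed it just past 2-fold.

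In complex IV, cytochrome c oxidase, all 11 members at 1 TPM or more in both lines were lower in RC77 T/E. Over all genes 59.6% were lower. COX8A, COX7C and COX6A1 were the most abundant members with a fixed level. The first was at 1671 TPM in MDA PCa 2b, where 110 genes were higher, and at 552 TPM in RC77 T/E, or 33.0%, and it overlaps AP000721.1 on its own strand. COX7C was at 1258 and 974 TPM, or 77.4%, the highest ratio of the complex, and COX6A1 at 1188 and 827 TPM, or 69.6%. The order of these subunits thus differed between the libraries, with COX8A highest in MDA PCa 2b and lowest of the 3 in RC77 T/E.

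Of the other nuclear subunits of complex IV, COX6C was at 23.5 or 235 TPM in the MDA PCa 2b library and 8.45 or 84.5 TPM in the RC77 T/E library, or 36.0%. GENCODE release 29 lists 17 pseudogenes named after COX6C, so its level is uncertain. COX4I1, the main form of the largest nuclear subunit, was at 9.81, 98.1 or 981 TPM against 4.47, 44.7 or 447 TPM, or 45.5%. COX7A2L, a relative of COX7A2, takes part in joining complexes III and IV into supercomplexes. It had the lowest ratio of complex IV as counted here, at 22.1 or 221 TPM against 7.18 or 71.8 TPM, or 32.5%. NDUFA4, counted here in complex I, was lower still, at 24.0%. The ratio was 50.6% for COX5A, 52.5% for COX6B1, 57.7% for COX7A2, 73.7% for COX5B and 75.4% for COX7B, none past 2-fold.

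At least 1 of the lines had less than 1 TPM of 7 members, and all 7 are paralogs known from particular tissues or conditions. COX6B2, a form of COX6B1 known from testis (chr19:55349306-55354719), was at 0.0129 TPM in the MDA PCa 2b library and 11.2 TPM in the RC77 T/E library. It overlaps the annotated gene AC020922.1 on its own strand. It was the only one of the 7 above 1 TPM in RC77 T/E. COX6B1 itself was at 5.75, 57.5 or 575 TPM in the MDA PCa 2b library and 3.02, 30.2 or 302 TPM in the RC77 T/E library, so that this pair lay in opposite directions. NDUFA4L2, a hypoxia-inducible relative of NDUFA4, was at 2.23 TPM in the MDA PCa 2b library and 0.369 TPM in the RC77 T/E library.

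The other 5 paralogs were under 0.3 TPM in both lines. COX4I2, known from lung, was listed at 0 in RC77 T/E and had 0.0442 TPM in MDA PCa 2b. COX6A2, the heart and muscle form of COX6A1, was listed at 0 in both, and COX7A1, the heart and muscle form of COX7A2, was at 0.0817 and 0.0333 TPM. COX7B2 had 0.286 TPM in MDA PCa 2b and was listed at 0 in RC77 T/E, and COX8C was listed at 0 in MDA PCa 2b and at 0.112 TPM in RC77 T/E. In both cell lines the widely expressed form of each subunit was thus above its tissue form, except for COX6B in RC77 T/E, where the position of the mark of COX6B1 decides which form was higher.

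**Figure D3:**
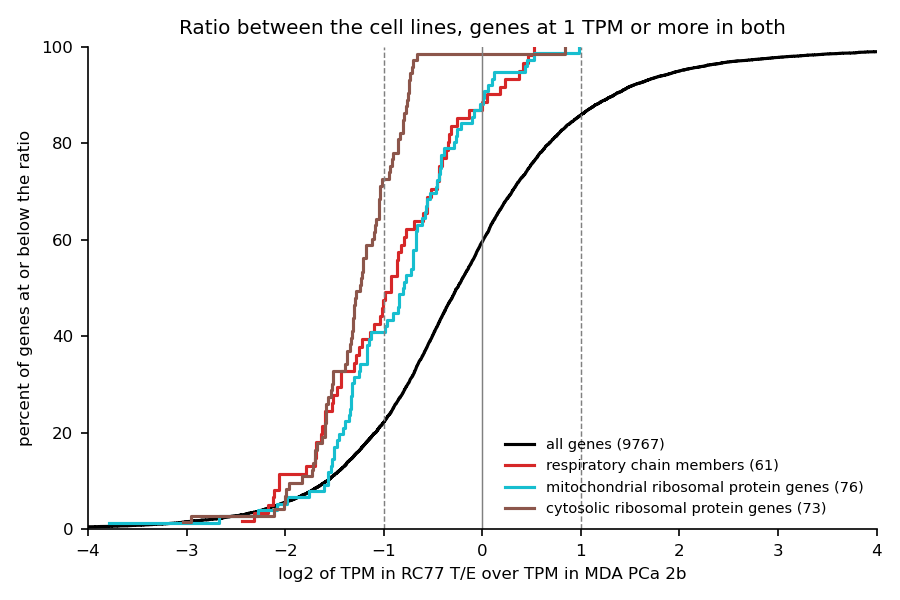
Cumulative share of genes (y axis, percent) at or below each log2 ratio of RC77 T/E over MDA PCa 2b (x axis) for 9767 genes at 1 TPM or more in both lines, the 61 members, 76 mitochondrial and 73 cytosolic ribosomal protein genes. At the dashed line of 2-fold lower, the curves stand at 22.2% for all genes, 47.5% for the members, 40.8% for mitochondrial and 72.6% for cytosolic ribosomal protein genes.

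Ribosomal protein genes lay on the same side. Of 76 mitochondrial ribosomal protein genes, 31 were 2-fold lower in RC77 T/E and 0 were 2-fold higher, with a median log2 ratio of -0.80. Of 73 cytosolic ribosomal protein genes, 53 were 2-fold lower and 0 were 2-fold higher, with a median of -1.24. The shift was thus shared with genes outside the respiratory chain, and the cytosolic ribosomal protein genes lay further from the median of all genes than the members did.

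Transcript length moved with the ratio over all genes. The members are short, with a median of 942 bases for the transcript with the longest coding sequence, beside 3074.5 bases for 9392 genes with a length. Among the other genes under 1000 bases the median log2 ratio was -0.70, and 39.6% were 2-fold lower. Among those of 1000 bases or more it was -0.22, and 21% were 2-fold lower. The 34 members under 1000 bases had a median of -0.96, with 47.1% 2-fold lower, and the 27 longer members had a median of -0.92, with 48.1%. Under 700 bases, 6 of 17 members were 2-fold lower, a smaller share than the 44.4% of the other genes, with medians of -0.85 and -0.80. Across the members alone, Spearman's rho between length and log2 ratio was 0.0138 over 61 genes, beside 0.155 over the other genes, given as a description because genes of 1 library share its depth and total. The part of length in the result was not tested.

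**Figure D4:**
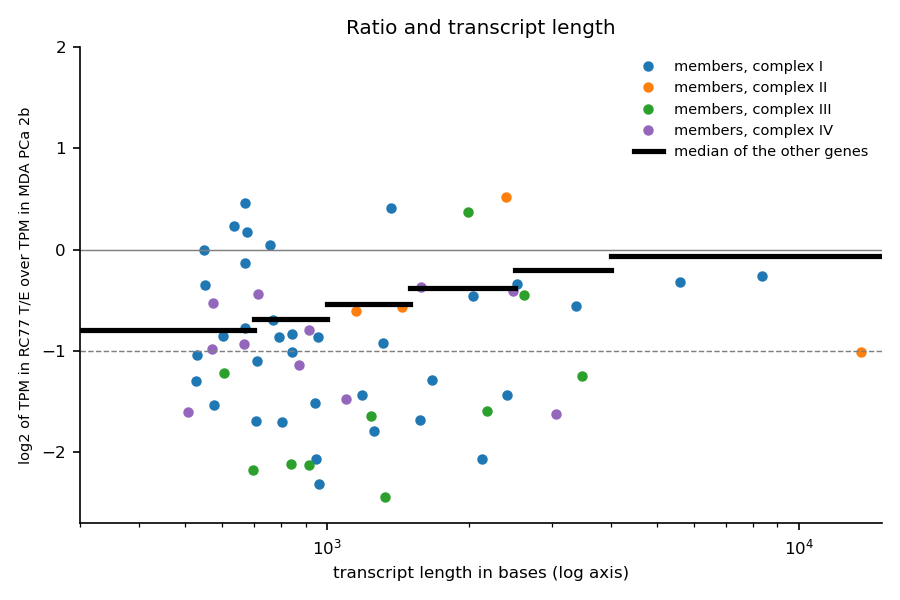
Log2 ratio of RC77 T/E over MDA PCa 2b (y axis) against transcript length in bases (log x axis) for the 61 members, coloured by complex; black bars give the median of the other genes in 6 length bins and the dashed line marks 2-fold lower. The bars rise from -0.80 under 700 bases to -0.06 at 4000 bases or more, and the members scatter around and below them.

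The members lie on 21 chromosomes, and 52 of the 61 had a ratio below the median of the other genes of their own chromosome. On chromosome 19, which holds 11 members, all 9 at 1 TPM or more in both lines were below the chromosome's median of -0.47, and 7 were 2-fold lower. On chromosome 8 all 4 members, COX6C, CYC1, NDUFB9 and UQCRB, were 2-fold lower, where the other genes had a median of -0.52. On chromosome 3 none of the 3 members, NDUFB4, NDUFB5 and UQCRC1, was below the median of -0.17. The chromosomes named are examples out of the 21. Over all genes 22.2% were 2-fold lower, and that share was not computed for the other genes of each chromosome. The copy number of these chromosomes was not measured, and a part of the chromosome in the ratios was not tested.

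Assembly factors, which help build the complexes and are no subunits of them, were lower in RC77 T/E in 41 of 50 cases and higher in 9. Over all genes 59.6% were lower. Of the 50, 22 (44%) were 2-fold lower and 1 was 2-fold higher, beside 22.2% and 14.1% of all genes. For complex I, 5 of 16 (31.2%) were 2-fold lower: NDUFAF6 (log2 ratio -2.33), NDUFAF4 (-1.94), ECSIT (-1.80), NDUFAF3 (-1.60) and NDUFAF5 (-1.04). NDUFAF4 was at 14.5 TPM in the MDA PCa 2b library and 3.76 TPM in the RC77 T/E library. For complex III they were UQCC2 (-1.65) and TTC19 (-1.30), out of 5, and for complex II 0 of 2 were past 2-fold.

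For complex IV, 12 of 23 assembly factors (52.2%) were 2-fold lower, beside 22.2% of all genes. Among them were CMC2 (-2.16), COA4 (-1.98), COX14 (-1.76), COX16 (-1.74), HIGD1A (-1.45), COA5 (-1.44), COX18 (-1.41) and COA3 (-1.38). SCO2, which delivers copper to the oxidase, was the 1 factor past 2-fold in the other direction, at 2.81, 28.1 or 281 TPM in the MDA PCa 2b library and 5.76, 57.6 or 576 TPM in the RC77 T/E library (1.04). For ATP synthase, whose own subunits were not analysed here, 3 of 4 assembly factors (75%) were 2-fold lower. With only 4 genes this share hangs on single genes. TMEM70 was at 45.4 TPM in the MDA PCa 2b library and 9.88 TPM in the RC77 T/E library (-2.20), ATPAF2 at 17.4 and 6.83 TPM (-1.35), and ATPAF1 had a log2 ratio of -2.10.

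Genes that carry electrons or exchange the products between mitochondrion and cytosol had a median log2 ratio of -0.82 over 14 genes. Of these, 6 (42.9%) were 2-fold lower, beside 22.2% of all genes, 0 were 2-fold higher and 4 were higher by less. SLC25A4, an ADP/ATP carrier known from heart and muscle, was at 16.0 or 160 TPM in the MDA PCa 2b library and 2.27 or 22.7 TPM in the RC77 T/E library (-2.82). CYCS, cytochrome c, had a log2 ratio of -1.37. Among the enzymes on routes that feed ubiquinone, ETFDH was at -1.89, DHODH at -1.58, ETFA at -1.32 and ETFB at -1.13, whereas GPD2, which feeds it from glycerol phosphate, was at 0.91. UCP2, an uncoupling protein family member, was at 0.89 and VDAC2, a channel of the outer membrane, at 0.36. SLC25A6, another ADP/ATP carrier, was listed at 2 loci, which were summed. It was at 98.8 TPM in the MDA PCa 2b library and 0.863 TPM in the RC77 T/E library, under the limit of 1 TPM.

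Import and quality control genes had a median log2 ratio of -1.13. Of 22 genes, 11 (50%) were 2-fold lower, beside 22.2% of all genes, 0 were 2-fold higher and 3 were higher by less. The protease subunit CLPP was at -2.25 and the chaperonin pair HSPE1 and HSPD1 at -2.02 and -1.78. The import receptor TOMM22 was at -1.65, CHCHD4 and GFER of the disulfide relay at -1.58 each, TIMM17A at -1.56 and TIMM44 at -1.48.

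Genes that transcribe, copy and process mitochondrial DNA and RNA lay near the median of all genes. Their median log2 ratio was -0.07 over 23 genes, or 0.18 once the median of all genes was subtracted. Of the 23, 3 (13%) were 2-fold lower and 2 were 2-fold higher, beside 22.2% and 14.1% of all genes. TFAM, which packages mitochondrial DNA and starts its transcription, was at 9.56 TPM in the MDA PCa 2b library and 9.89 TPM in the RC77 T/E library. LRPPRC, which stabilises mitochondrial mRNA, was at 2.04, 20.4 or 204 TPM and at 4.14, 41.4 or 414 TPM (1.02), and MGME1, a nuclease of mitochondrial DNA, at 11.9 and 24.3 TPM (1.03). The 3 lower genes were HSD17B10 (-1.69), TOP1MT (-1.45) and TFB2M (-1.07).

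Of the regulators of mitochondrial biogenesis, 9 were at 1 TPM or more in both lines, with a median log2 ratio of 0.01. NRF1, whose letters are shown in capitals above, had a log2 ratio of -1.43, ESRRA, an orphan nuclear receptor that acts on respiratory genes, of -1.26, and TFEB, known for lysosomal genes, of -3.61. GABPA, the DNA-binding part of the ETS factor GABP, was at 7.40 TPM in the MDA PCa 2b library and 7.57 TPM in the RC77 T/E library. The coactivator PPARGC1A was at 0.365 and 0.0190 TPM. No relation between these factors and the members can be tested with 1 library per cell line.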

How the data were processed

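RNA of untreated cultures of MDA PCa 2b and of RC77 T/E was sequenced as paired-end directional libraries, 1 per cell line. The submitters' processing notes name CASAVA, FastQC 0.11.9, Trimmomatic 0.38, Salmon 1.2.0 and GRCh38. The authors deposited TPM values per locus with their mean and standard error, normalised for length and library total, so depth and counting error are unknown. Values of 1 TPM or more with 3 or more decimals lack their decimal mark. Every position that leaves 1 to 3 leading digits and no fewer than 3 decimals was tried, and pairs that gave the deposited mean and standard error were kept. The design had assumed plain TPM.

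Each of 22704 loci was used once, loci of a symbol were summed at the lowest position, and the log2 ratio used no pseudocount and genes at 1 TPM or more in both lines. The call was 2-fold, as no test was possible. The restoration and the calls were tested on simulated data. Positions are those of the deposited table. All 68 members started within 100 kb of their place in GENCODE release 29, from which strands, overlaps and transcript lengths were taken; 14 members overlap a protein-coding gene on their own strand, and 114 pseudogenes are named after 33 of the members. Promoters are from RefSeq. The members and gene lists were chosen with earlier results of these data known. Named genes are every member past 2-fold or under 1 TPM, the extremes of each complex, paralog pairs, and up to 8 genes past 2-fold of each other list. Some of the marker genes are not reported here. Genes named outside this rule are examples chosen after their values were seen. Alternatives were another filter, pseudocount, fold, scaling, locus and position. Python 3.11.15, numpy 2.4.6, scipy and matplotlib were used.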

Additional observations from a re-analysis of the deposited data

How the results depend on the processing

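Of 66 alternative values computed, 59 kept their direction and moved by less than 1.5 times, and 7 moved further. The median log2 ratio over the members, -0.93, lay between -0.96 and -0.67 under the other pseudocounts, filters and scalings, and at -0.45 over members with 1 position of the decimal mark only, an alternative chosen after seeing the data that keeps genes near a ratio of 1 more often. The median of complex II, -0.58, became -0.33 after centring on all genes and -0.36 after scaling to the upper quartile. The count of members 2-fold lower in RC77 T/E, 29, became 15 of 46 (32.6%) with a filter of 5 TPM at the lowest positions, where the share of all genes also fell, from 22.2% to 14.3%, and 4 of 12 with 1 position only. The count of members 2-fold higher, 0, became 1 with a pseudocount of 1 TPM and 1 with a pseudocount of 0.1 TPM, both with a filter on the mean, which admits COX6B2. With 1.5-fold the counts were 40 lower and 0 higher. No result reversed. No paired analysis was possible because there is only 1 library of either line. Depth is unknown, so no limit of detection can be given.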

Other observations

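Genes outside the symbols used above also belong to the same machinery, and 2 of them were looked at after their values were seen. C15orf48 (chr15:45430579-45448761), a paralog of NDUFA4 known to take its place in complex IV in inflamed cells, was at 0.102 TPM in the MDA PCa 2b library and 2.25 TPM in the RC77 T/E library (no ratio is given, as 1 line is under 1 TPM), while NDUFA4 itself was at 24.0% in RC77 T/E. NDUFAB1, the acyl carrier protein that is also a complex I subunit, was at 198 TPM in the MDA PCa 2b library and 122.6 TPM in the RC77 T/E library, 61.9% of that level. Both had 1 position of the decimal mark. Neither difference has a replicate check.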
